A study of Rattus norvegicus with 4 samples.

Results

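Short sequences whose letters read as pieces of glycine transfer RNA (tRNA-Gly) were followed through small RNA libraries of rat hippocampus. Sequences sharing a stretch of 20 identical bases, directly or through others, were joined into families, and the families holding rno_piR_005567 and rno_piR_000219 were taken. They have 3 and 2 sequences, 5 of the 3129 listed and 2 of 307 families. The values of the libraries played no part in the joining, but the members were chosen with earlier results of these data known.

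The RNA came from immunoprecipitates of hippocampal CA1 tissue from male Wistar rats, adults of 7 to 8 weeks, and the series concerns piRNAs bound to Piwil2, a PIWI protein. The 4 libraries are Sham, tGCI26h (transient global cerebral ischemia, named with a time of 26 h), HPC0h (named with a time of 0 h, an abbreviation the labels leave unexplained) and IgG, the antibody control. The labels give no other agent or allele for any group, no animal source for the IgG library, and no statement on pooling of animals. There is 1 library per group here, although the design text speaks of 3 replicates, so no spread between animals could be measured and no test between conditions was made.

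Transfer RNAs carry amino acids to the ribosome. Enzymes such as angiogenin cut them near the anticodon, above all in stressed cells, and the fragments from the 5' end are stable enough to be sequenced in many tissues. Such fragments overlap piRNAs in length, and piRNA catalogues are known to hold some of them under piRNA names. A piRNA is a small RNA that guides a PIWI protein, best known for silencing transposons in the germ line. A primary piRNA usually begins with U, which reads as T in these tables, and a secondary one usually has A at position 10.

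The sequences are shown because the name tRNA-Gly rests on their letters alone. Capitals mark the longest stretch that all 5 have in common, AGTGGTA, found by comparing them.
rno_piR_005567: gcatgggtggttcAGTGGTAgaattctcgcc
novel_15704_x129: gcattgtggttcAGTGGTAgaattc
novel_9960_x194: gcattgtggttcAGTGGTAgaat
rno_piR_000219: agcgccgctggtgtAGTGGTAtcatgcaag
rno_piR_022904: gcgccgctggtgtAGTGGTAtcatgcaa

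The lengths are 31, 25, 23, 30 and 28 nt in that order. The common stretch starts at base 14 in rno_piR_005567 and rno_piR_022904, at base 13 in novel_15704_x129 and novel_9960_x194 and at base 15 in rno_piR_000219. This region of a tRNA forms the D arm, and in the gene it lies in the A box, an internal promoter element of RNA polymerase III. The stretch was defined on the members, so that they hold it is no finding. Over all listed sequences 16, or 0.511%, hold it as written and 5 hold its reverse complement. Of the 11 holders outside the members, 3 have rno_piR names.

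Inside the first family, novel_9960_x194 lies whole within novel_15704_x129. Their longest stretch in common with rno_piR_005567 is 20 nt for novel_15704_x129 and 18 nt for novel_9960_x194, and both end before it does. They also differ from it near the 5' end, with an edit distance of 7 over the whole length for novel_15704_x129, so they are not plain truncations of it. The 20 nt are exactly the minimum of the family rule, while novel_12833_x154, outside the family, has 11 nt in common with rno_piR_005567. In the second family rno_piR_022904 lies whole within rno_piR_000219, which has 1 more base at each end. The families have no longer stretch in common than the 7 capitals.

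The letters of rno_piR_005567 are, from general knowledge, those of the 5' part of a tRNA-Gly with anticodon GCC, up to the anticodon loop, and those of rno_piR_022904 the same part of another tRNA-Gly with anticodon CCC. No tRNA sequence was at hand to check this, so the name stays provisional. RefSeq names 58 tRNA-Gly genes in the rat assembly GRCr8, 22 called Trnag-gcc, 21 Trnag-ucc, 10 Trnag-acc and 5 Trnag-ccc, and a short 5' fragment may match several of them. None of the 5 sequences occurred, on either strand, in the RefSeq tables of rat miRNAs or of promoters. Of the 5, 0 begin with T and 0 have A at position 10. The same shares over all listed sequences were not counted, so these counts have no background. Members of the same family overlap in their letters, so the 5 are not independent of each other. Whether the members are piRNAs was not tested. No mRNA was measured, so the labelled tissue could not be checked against its markers.

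The depth behind the values differs. The listed sequences hold 159215 tags for Sham, 222511 for tGCI26h, 830634 for HPC0h and 668857 for IgG. Levels are given as CPM, the counts scaled to the sum of these listed tags, that is, as shares of a library, and they do not measure how much RNA was recovered. All intervals are exact 95% intervals for counting error only. PCR copies without molecular identifiers are not independent molecules, so even that error may be larger than the intervals show. In tissue, fewer cells holding an RNA and less of it per cell cannot be told apart.

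Of the 5 members, rno_piR_005567 alone was abundant. It had 5888 tags for Sham, 3201 for tGCI26h, 5566 for HPC0h and 4805 for IgG. As CPM this is 36981 for Sham (interval 36060 to 37920), 14386 for tGCI26h (13895 to 14889), 6701 for HPC0h (6527 to 6879) and 7184 for IgG (6983 to 7389). The order is therefore Sham, tGCI26h, IgG and HPC0h. No interval overlaps another, but HPC0h and IgG are close, and without replicates it is not known whether 2 libraries of one group would differ by as much. It was the 6th most abundant of all sequences in Sham, the 8th in tGCI26h, the 18th in HPC0h and the 16th in IgG.

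The other members were scarce. The sequence novel_15704_x129 had 2 tags for Sham, 16 for tGCI26h, 21 for HPC0h and 20 for IgG, or 12.6, 71.9, 25.3 and 29.9 CPM. By raw counts its level was lowest in Sham, where rno_piR_005567 was highest, but the Sham value has an interval of 1.52 to 45.4. In the authors' normalized table, scaled like CPM, with 54.3 for Sham, 124 for tGCI26h, 37.8 for HPC0h and 46.1 for IgG, Sham was not the lowest. The sequence novel_9960_x194 had 3 tags in IgG and was not listed in the 3 Piwil2 libraries. The table lists no value below 2, so an unlisted sequence may still have had a read.

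In the second family, rno_piR_000219 had 5 tags for Sham, 10 for tGCI26h, 5 for HPC0h and 5 for IgG, and rno_piR_022904 had 5, 8, 5 and 5. As CPM, rno_piR_000219 stood at 31.4 for Sham, 44.9 for tGCI26h, 6.02 for HPC0h and 7.48 for IgG. Both names thus had equal counts in 3 of 4 libraries. Their letters overlap, and whether the same reads were counted under both names was not tested. Of the 8 pairs of rno_piR names in which one sequence lies inside another, this pair is one of 3 with equal values in 3 or 4 libraries, blank cells counted as equal.

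**Figure D1:**
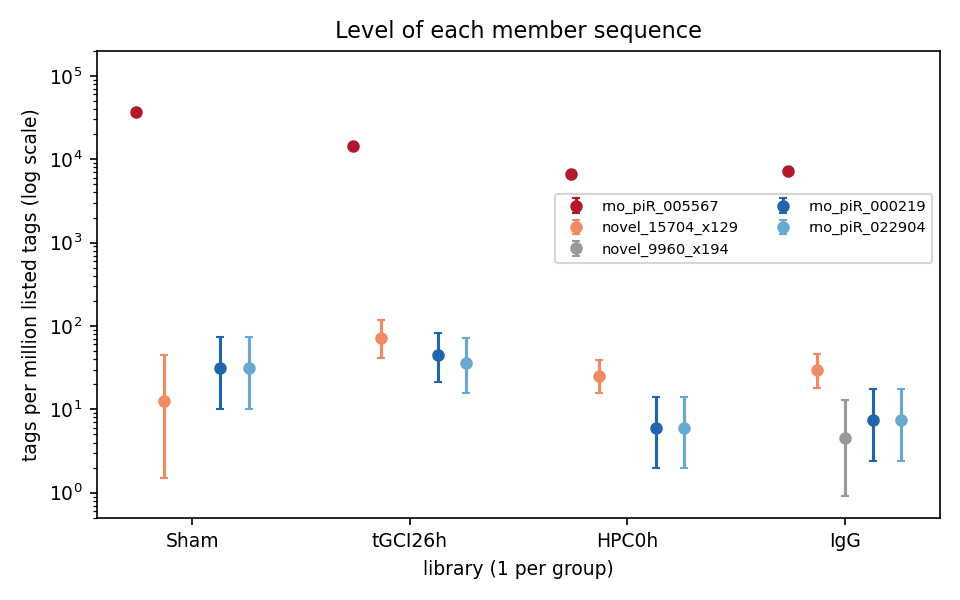
Level of each member sequence in the 4 libraries, as CPM of listed tags on a log scale, with exact 95% counting intervals as bars. The lowest point of rno_piR_005567, 6701 in HPC0h, lies far above the highest of the other members, 71.9 for novel_15704_x129 in tGCI26h. A member without a point was not listed in that library.

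The sum of all 5 members held 3.71% of listed tags for Sham (3.61 to 3.80), 1.45% for tGCI26h (1.40 to 1.50), 0.674% for HPC0h (0.656 to 0.692) and 0.723% for IgG (0.703 to 0.744). Nearly all of this was rno_piR_005567, so the sum says little about the other 4. Among all tags with an rno_piR name, rno_piR_005567 held 87.5% for Sham (86.6 to 88.2), 67.4% for tGCI26h (66.1 to 68.8), 78.0% for HPC0h (77.0 to 78.9) and 78.5% for IgG (77.4 to 79.5). What a library shows as catalogued piRNA is therefore mostly this 1 tRNA-like sequence, in the IgG control too.

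The sequences of 24 to 32 nt, a range typical of piRNAs, were few in all libraries. There are 435 of them, 4 of the members included, and they held 5.50% of tags for Sham, 4.05% for tGCI26h, 1.73% for HPC0h and 1.92% for IgG. In each library rno_piR_005567 was the most abundant of them. It made up 67.2% of the tags of this length for Sham (66.2 to 68.2), 35.6% for tGCI26h (34.6 to 36.6), 38.7% for HPC0h (37.9 to 39.5) and 37.5% for IgG (36.7 to 38.3). Within this length class Sham stands apart, whereas tGCI26h and HPC0h lie near IgG. The other sequences of 24 to 32 nt had another order, with 1.81% of listed tags for Sham, 2.61% for tGCI26h, 1.06% for HPC0h and 1.20% for IgG. The length class was chosen after the data had been seen.

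**Figure D2:**
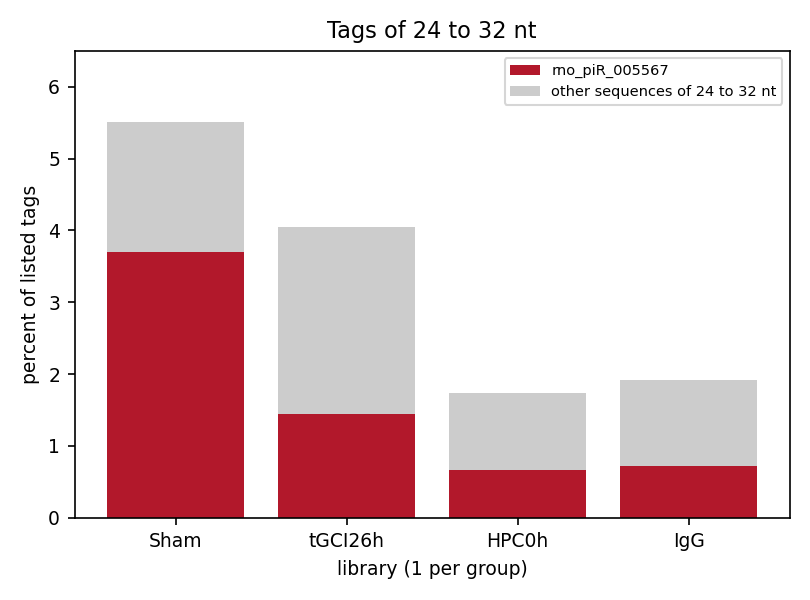
Percent of listed tags held by rno_piR_005567 (red) and by the other sequences of 24 to 32 nt (grey), stacked, in each library. The red part is 3.70% in Sham and 0.670% in HPC0h, and the grey part is largest in tGCI26h at 2.61%.

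A sequence was called higher or lower in a pair of libraries where it had at least 10 counts in 1 of them, a CPM at least 2 times that of the other and an interval without 1. The calls describe 2 libraries and are not a test of the conditions.

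The Piwil2 libraries were first set against IgG, the background of the immunoprecipitation. In Sham, rno_piR_005567 was 5.15-fold above IgG (4.95 to 5.35). With the totals of 24 to 32 nt in place of all listed tags it was 1.79-fold above, which is no longer a call. Those totals hold rno_piR_005567 itself. Relative to the other tags of 24 to 32 nt, it was 3.41-fold above its IgG proportion (3.22 to 3.62). Of 2 measured members 1 was higher, against 12.5% of all measured sequences called higher and 28.6% called lower. The other, novel_15704_x129, was 2.38-fold below IgG with an interval from 1.73 above to 21.0 below, so no direction can be given for it, and in the authors' normalized table its ratio was 1.18. The 2 members of the second family had too few counts to be measured, and their ratio of 4.20 had an interval from 0.967 to 18.3.

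In tGCI26h, rno_piR_005567 was at a ratio of 2.00 to IgG (1.91 to 2.09), just on the ratio that makes a call. The call is lost with TMM factors, at 1.87, with median-of-ratios factors, at 1.996, with the authors' normalized table, at 1.97, and with totals that leave out the most abundant family, at 1.71. With the totals of 24 to 32 nt the ratio turned to 0.948. Among the measured members 3 of 3 were higher than IgG, where the share over all sequences was 16.6% higher and 19.5% lower. Another is novel_15704_x129 at 2.40 (1.17 to 4.88). Its call is lost with totals that leave out the most abundant family, at 2.06 (0.998 to 4.18), and with the totals of 24 to 32 nt, at 1.14. The remaining one is rno_piR_000219 at 6.01 (1.87 to 22.4), which was measured only because it reached 10 tags in this library, and whose call is lost with the totals of 24 to 32 nt, at 2.85 (0.887 to 10.6). Against the other tags of 24 to 32 nt, rno_piR_005567 was at 0.920 of its IgG proportion (0.869 to 0.973), and those other tags were 2.17-fold above IgG (2.10 to 2.25) once the members are left out.

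In HPC0h, rno_piR_005567 was at 0.933 of IgG (0.897 to 0.970), and the ratio passed 1 with TMM and with median-of-ratios factors, at 1.03 each, with the totals of 24 to 32 nt, at 1.03, and with totals that leave out the most abundant family, at 1.16. No measured member was called, of 2, where 17.8% of sequences were higher and 17.1% lower. The sequence novel_15704_x129 was at 0.845 (0.436 to 1.64). For rno_piR_005567 the level in HPC0h was thus close to that of the control antibody, while the counts of the other members are too low to tell.

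The second question of the design is how the Piwil2 libraries differ among themselves. In tGCI26h, rno_piR_005567 was 2.57-fold lower than in Sham (2.46 to 2.68). With the totals of 24 to 32 nt the ratio was 0.529 in place of 0.389, which is no longer a call. Those totals hold rno_piR_005567 itself, so the ratio lies nearer to 1 than a ratio to the other tags alone. Relative to the other tags of 24 to 32 nt, rno_piR_005567 was 3.71-fold lower in tGCI26h than in Sham (3.49 to 3.95). Among 3 measured members 1 was lower and 1 higher, while 13.9% of all measured sequences were lower and 27.2% higher. The higher one was novel_15704_x129, with 16 tags against 2 and a ratio of 5.72 (1.35 to 51.3), or 2.28 in the authors' normalized table. It was measured only because it passed 10 tags in tGCI26h, the library where it is high. For rno_piR_000219 the ratio was 1.43 (0.446 to 5.34), which gives no direction.

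In HPC0h against tGCI26h, 3 of 3 measured members were lower, against 21.0% of sequences lower and 21.0% higher. The ratio was 2.15-fold lower for rno_piR_005567 (2.05 to 2.24), 2.84-fold lower for novel_15704_x129 (1.39 to 5.72) and 7.47-fold lower for rno_piR_000219 (2.33 to 27.8). The last was again measured through tGCI26h alone. For rno_piR_005567 the difference fell short of 2 with TMM factors, at a ratio of 0.550, with median-of-ratios factors, at 0.514, and with totals that leave out the most abundant family, at 0.678. The last setting also took novel_15704_x129 to 0.512. With the totals of 24 to 32 nt the ratio of rno_piR_005567 turned to 1.09, that of novel_15704_x129 was 0.821 (0.408 to 1.68) and that of rno_piR_000219 was 0.313 (0.0838 to 1.004), so none of the 3 calls was left. The names give the 2 libraries different times without saying from what they are counted, so time and treatment cannot be told apart in this pair.

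In HPC0h against Sham, rno_piR_005567 was 5.52-fold lower (5.32 to 5.73), at a ratio of 0.181. It became 0.575 with the totals of 24 to 32 nt, which is no longer a call. Those totals hold the sequence itself. Relative to the other tags of that length, rno_piR_005567 was 3.25-fold lower (3.07 to 3.44). Of 2 measured members 1 was lower, where 15.9% of sequences were lower and 25.4% higher. The sequence novel_15704_x129 had 21 tags against 2, at a ratio of 2.01 with an interval from 0.492 to 17.7, and at 0.695 in the authors' normalized table. Each of these comparisons shares a library with another, so they are not independent of each other.

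The abundant sequences give a setting for these sizes. Besides rno_piR_005567, 289 sequences had at least 50 tags in every library. In tGCI26h over Sham its log2 ratio was -1.36, and 7 of them had a lower ratio. In HPC0h over Sham it was -2.46, with 4 lower. In Sham over IgG it was 2.36, with 4 of them higher. In tGCI26h over IgG it was 1.00, with 40 higher, in HPC0h over tGCI26h -1.10, with 62 lower, and in HPC0h over IgG -0.10, with 123 higher. Its place was near the edge in every comparison that includes Sham and well inside in the other 3.

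**Figure D3:**
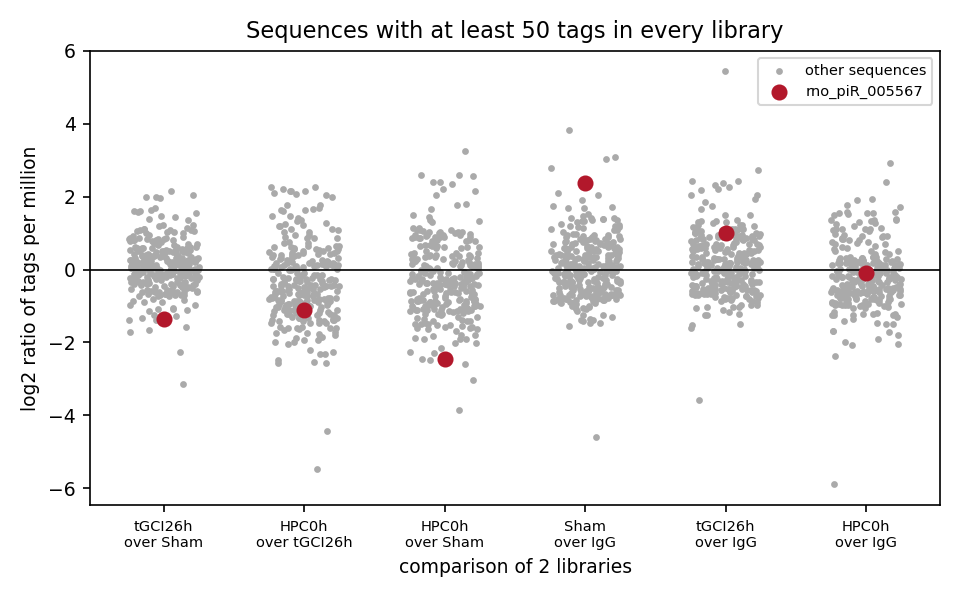
Log2 ratio of CPM in each pair of libraries for the 289 other sequences with at least 50 tags in every library (grey) and for rno_piR_005567 (red). The red point is near the edge of the cloud in the 3 pairs that include Sham, at -1.36, -2.46 and 2.36, with 7, 4 and 4 grey points beyond it.

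Ratios between sequences of the same library need no library total. Of its family's tags novel_15704_x129 made up 0.0340% for Sham (0.00411 to 0.123), 0.497% for tGCI26h (0.285 to 0.806), 0.376% for HPC0h (0.233 to 0.574) and 0.414% for IgG (0.253 to 0.639). Sham is the low one, and the other 3 overlap. Relative to rno_piR_005567 it stood 14.7-fold higher in the tGCI26h library than in the Sham one (3.46 to 132) and 12.3-fold lower in Sham than in IgG (2.97 to 108). These values rest on 2 tags in Sham. In the authors' normalized table the sequence has 48 for Sham, 111 for tGCI26h, 36 for HPC0h and 43 for IgG, and the first of these ratios is 5.75.

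**Figure D4:**
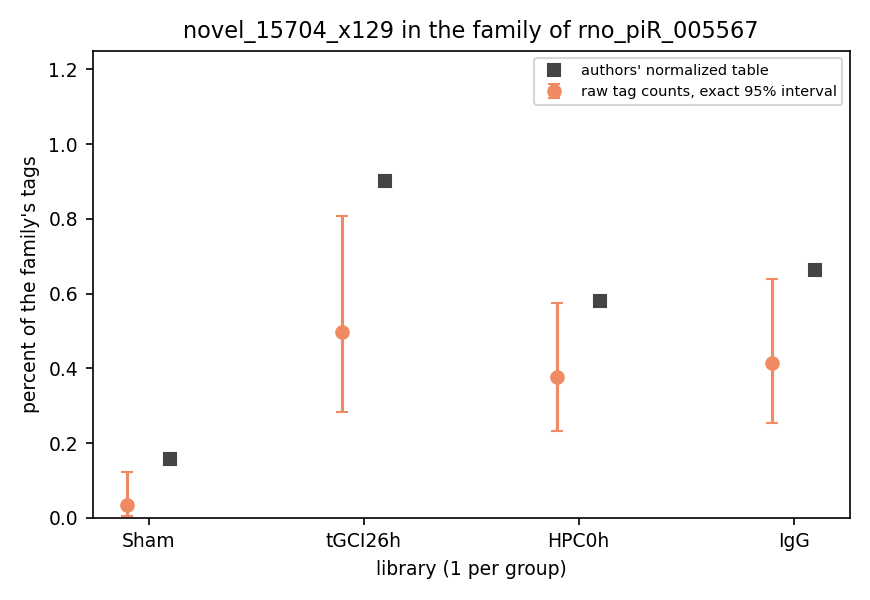
Percent of the tags of the family of rno_piR_005567 held by novel_15704_x129 in each library, from raw counts with exact 95% intervals (circles) and from the authors' normalized table (squares). Both tables place Sham lowest, at 0.0340% and 0.158%.

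That disagreement is larger than for abundant sequences. Over sequences with 1000 tags or more, the normalized value divided by the raw count had a median of 5.17 for Sham (5.12 to 5.49 over 19 sequences), 3.81 for tGCI26h, 1.13 for HPC0h and 1.36 for IgG. For rno_piR_005567 it was 5.15, 3.81, 1.11 and 1.34, the same scale. For novel_15704_x129 it was 24 for Sham, 6.94 for tGCI26h, 1.71 for HPC0h and 2.15 for IgG. For novel_9960_x194 it was 3.67 in IgG, the only library with a raw count for it. The members of the second family lay nearer to the abundant sequences. There it was 4.8 for rno_piR_000219 and rno_piR_022904 in Sham, 4.1 and 4.25 in tGCI26h, 1.4 for both in HPC0h and 2 for both in IgG. How the normalized values were made was not described in the labels or headers.

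Other tRNA-like sequences were set beside rno_piR_005567. The sequences that follow stand for these groups, with capitals on the longest stretch each has in common with rno_piR_005567.
novel_2845_x640: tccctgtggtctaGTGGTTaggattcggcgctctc
novel_3644_x506: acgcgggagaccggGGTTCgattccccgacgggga
rno_piR_005901: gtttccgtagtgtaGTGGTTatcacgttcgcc

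The first is the most abundant of a family of 7 sequences that read as the 5' part of tRNA-Glu. It had 79119 CPM for Sham, 86665 for tGCI26h, 36605 for HPC0h and 60257 for IgG, and novel_128_x8598 and novel_2573_x705 follow it, with 38370 and 7141 for Sham. The sum of this family was at a ratio of 1.06 for tGCI26h over Sham (1.04 to 1.08), where rno_piR_005567 was lower. None of its 6 measured sequences was called there, at a median log2 ratio of 0.02 beside 0.38 over all measured sequences. Of all measured sequences 27.2% were called higher there and 13.9% lower. Relative to this family, rno_piR_005567 was 2.72-fold lower in tGCI26h than in Sham (2.59 to 2.85). In HPC0h over tGCI26h, in contrast, the ratio of ratios was 1.03 (0.980 to 1.07). The family was itself 2.20-fold lower there. Of its measured sequences 4 of 6 were called lower, against 21.0% of all. Its median log2 ratio was -1.10 beside 0.16 over all. The proportion of these RNAs thus differed beyond counting error between Sham and tGCI26h, and not between tGCI26h and HPC0h.

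The second belongs to a family of 19 sequences that read as tRNA-Asp, from the 3' part of the molecule, and is thus another kind of fragment. It had 616 CPM for Sham, 512 for tGCI26h, 96.3 for HPC0h and 28.4 for IgG. The most abundant of the family, novel_19801_x107, had 710 in Sham, 553 in tGCI26h and 37.4 in IgG. For novel_14794_x136 these values were 119, 571 and 23.9. Both novel_19801_x107 and novel_3644_x506 thus stood lower in tGCI26h than in Sham, and novel_14794_x136 higher. As a sum the family was at a ratio of 1.904 for tGCI26h over Sham (1.70 to 2.14). Of its 15 measured sequences 9 were called higher and 0 lower, where 27.2% of all were higher and 13.9% lower. Relative to the sum of this family, rno_piR_005567 was 4.89-fold lower in tGCI26h than in Sham (4.32 to 5.55). In HPC0h, relative to the same sum, rno_piR_005567 was 2.71-fold higher than in tGCI26h (2.44 to 3.019). In Sham over IgG the sum of this family was at a ratio of 9.19 (7.69 to 11.0), above the 5.15 of rno_piR_005567. The sum of the family of novel_2845_x640 was below it, at 1.34 (1.32 to 1.37).

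The third, rno_piR_005901, is the next most abundant rno_piR name and reads as the 5' part of tRNA-Val. It had 2789 CPM for Sham, 1766 for tGCI26h, 465 for HPC0h and 330 for IgG, with Sham highest and tGCI26h next, as for rno_piR_005567. Between Sham and HPC0h the proportion of both did not differ beyond counting error, with a ratio of ratios of 1.09 (0.942 to 1.26). From Sham to tGCI26h, rno_piR_005567 was 1.63-fold lower relative to rno_piR_005901 (1.41 to 1.88). From tGCI26h to HPC0h it was 1.77-fold higher relative to rno_piR_005901 (1.52 to 2.06). The next 2 names had another order. In rno_piR_005598 there were 264, 1497, 384 and 175 CPM in Sham, tGCI26h, HPC0h and IgG, and in rno_piR_008174 there were 245, 386, 90.3 and 217. The log2 ratio of Sham over IgG was 3.08 for rno_piR_005901, above the 2.36 of rno_piR_005567. It was 0.59 for rno_piR_005598 and 0.18 for rno_piR_008174, both below. Of the 123 rno_piR names outside the members, 18 were measured in tGCI26h against Sham. Among these 4 were higher and none lower, at a median log2 ratio of 0.70. Over all measured sequences 27.2% were higher and 13.9% lower. In HPC0h over tGCI26h 17 of 22 were lower and 1 higher, at a median of -2.00. Of all measured sequences 21.0% were lower there and 21.0% higher. The largest of the catalogued names was thus called lower in tGCI26h than in Sham, and none of the 18 measured names outside the members was. With only 18 names the absence of lower calls tells little. Among them rno_piR_005901 was also lower, at 1766 against 2789 CPM, short of a call.

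**Figure D5:**
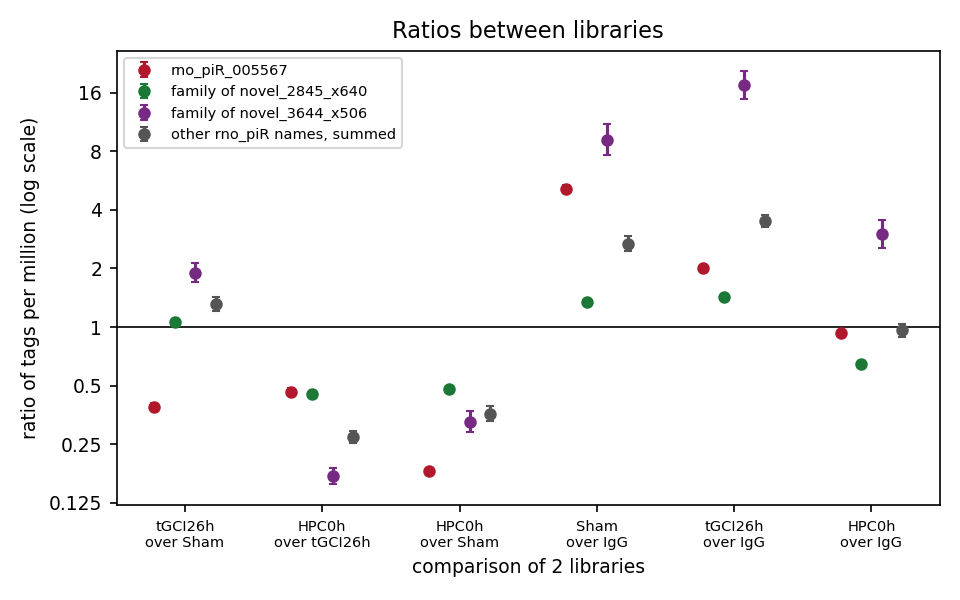
Ratio of CPM in each pair of libraries, on a log scale with exact 95% counting intervals, for rno_piR_005567 and for the summed families of novel_2845_x640 and novel_3644_x506 and the other rno_piR names. In tGCI26h over Sham only rno_piR_005567, at 0.389, lies below 1.

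Likeness of pattern was measured as the root mean square difference of log2 CPM over the 4 libraries, each profile centred on its mean. The nearest of the 289 sequences were novel_11138_x175 at 0.36, novel_21498_x101 at 0.39, novel_11728_x168 at 0.40, novel_5113_x364 at 0.44 and novel_21074_x102 at 0.45, beside a median of 1.01 over all 289. They have 38 or 39 nt against 31 nt. The nearest, novel_11138_x175, had 148 tags for Sham, 84 for tGCI26h, 141 for HPC0h and 217 for IgG. With 4 libraries such likeness is a description only.

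By letters, no sequence outside the members was nearer to rno_piR_005567 than an edit distance of 11. At that distance, those with the most tags were rno_piR_005552, rno_piR_005633, novel_12833_x154, rno_piR_001414 and rno_piR_001415, which had at most 25 tags in any library. The nearest to rno_piR_000219 were novel_16963_x121 and rno_piR_005633 at 11, and novel_19895_x106, novel_9822_x197 and novel_15246_x133 at 12. Of these novel_16963_x121 had the most tags, with 26 for Sham, 56 for tGCI26h, 69 for HPC0h and 82 for IgG. The abundant glycine fragment thus has no near neighbour by letters outside its family. This is partly set by the family rule, which takes in sequences sharing 20 bases. Inside the family no other sequence had a comparable count either, with at most 21 tags for novel_15704_x129.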

How the data were processed

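All comparisons used the count of tags for each sequence in the raw table, as deposited and per the file headers. The authors' normalized table was treated as a score, since its deposited values are whole numbers whose scaling no header or label explains. Novoalign 3.02.12 and cutadapt 1.9.3 are named, without their roles, per the submitters' processing notes, with the genome build not given in the sources used here. Some lines of both tables had been emptied for this work. Columns were matched by name, and P0, R26 and S match HPC0h, tGCI26h and Sham only in part. Blank cells were taken as 0. CPM used the summed counts of 159215 to 830634 listed tags; the precision of each value is its interval. For other totals or factors the interval was scaled with the ratio. Ratios carry exact 95% Clopper-Pearson intervals on the summed count (SciPy 1.17.1), and ratios of ratios exact conditional ones. TMM factors (edgeR 4.0.16), median-of-ratios factors (DESeq2 1.42.0), other totals, the normalized table and other family rules were alternatives. The totals of 24 to 32 nt, the sums without rno_piR_005567 or rno_piR_022904 and the family shares from the normalized table were alternatives chosen after seeing the data. All 5 members are named, with the 3 most abundant sequences of each compared list, the 5 of likest pattern and the 5 of likest letters. The calling step was tried on simulated Poisson counts. These hold no PCR copies and no spread between animals, so they check the counting arithmetic only. The members and lists were chosen with earlier results of these data known.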

Additional observations from a re-analysis of the deposited data

Results flagged for a closer look

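One value outside the raw counts stood above the control. The sequence novel_9960_x194 is blank for tGCI26h in the raw table, but the authors' normalized table gives it 22 there and 11 in IgG, or 24.5 and 11.8 when scaled like CPM to the sum of that table. In Sham and HPC0h it has 5 and 3, or 5.66 and 3.15 on that scale, below IgG.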

How the results depend on the processing

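No paired analysis was possible because each group has 1 library, and for the same reason no replicate could be left out. For the summed members the ratios of tGCI26h over Sham, HPC0h over tGCI26h, Sham over IgG, tGCI26h over IgG and HPC0h over IgG were 0.340, 0.547, 5.52, 1.88 and 1.03 with TMM factors. With median-of-ratios factors they were 0.337 for tGCI26h over Sham, 0.511 for HPC0h over tGCI26h, 0.173 for HPC0h over Sham, 5.94 for Sham over IgG and 1.02 for HPC0h over IgG. Without the most abundant family in the totals they were 0.674 for HPC0h over tGCI26h, 0.258 for HPC0h over Sham, 4.49 for Sham over IgG, 1.72 for tGCI26h over IgG and 1.16 for HPC0h over IgG. Under that setting the member share was 5.55% for Sham, 2.12% for tGCI26h, 1.43% for HPC0h and 1.23% for IgG, as the totals are smaller by construction. It also gave 695 sequences higher and 267 lower in HPC0h over tGCI26h, and 832 and 199 in HPC0h over Sham. The normalized table gave 0.190 for HPC0h over Sham and 4.93 for Sham over IgG, member shares of 3.45%, 1.38%, 0.653% and 0.699% in Sham, tGCI26h, HPC0h and IgG, and shares of novel_15704_x129 in its family of 0.158%, 0.900%, 0.580% and 0.662%. With the totals of 24 to 32 nt the summed ratios were 0.534 for tGCI26h over Sham, 0.577 for HPC0h over Sham, 1.78 for Sham over IgG and 1.03 for HPC0h over IgG, and 2 turned round, HPC0h over tGCI26h to 1.08 (1.09 for rno_piR_005567 alone) and tGCI26h over IgG to 0.952 (0.948 alone). Without rno_piR_005567 the sum turned to 2.03 in tGCI26h over Sham, with 0.244 for HPC0h over tGCI26h, 0.495 for HPC0h over Sham, 1.53 for Sham over IgG, 3.10 for tGCI26h over IgG and 0.756 for HPC0h over IgG. The cause was not tested. The totals of 24 to 32 nt used above hold rno_piR_005567 itself. With at least 50 counts, which leaves fewer sequences, the calls were 165 higher and 69 lower in tGCI26h over Sham, 282 and 221 in HPC0h over tGCI26h, 101 and 325 in Sham over IgG, 151 and 208 in tGCI26h over IgG, 213 and 195 in HPC0h over IgG, and 162 lower in HPC0h over Sham. Joining families by 16 or 24 bases and leaving out rno_piR_022904 moved no summed ratio beyond its counting interval. The members other than rno_piR_005567 had 21 tags or fewer in every library, which leaves wide intervals.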
